A study of Mus musculus with 56 samples.

Results

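The cell cycle genes described here are 40 genes of DNA replication and mitosis, taken by symbol from the deposited count table, which lists 55011 gene symbols. They were grouped as 17 replication genes (Ccne1, Ccne2, Rrm1, Rrm2, Mcm2, Mcm3, Mcm4, Mcm5, Mcm6, Mcm7, Pcna, Tyms, Cdc6, Cdt1, Gins2, Tk1 and Uhrf1) and 21 mitosis genes (Mki67, Top2a, Cdk1, Ccna2, Ccnb1, Ccnb2, Bub1, Bub1b, Aurka, Aurkb, Birc5, Plk1, Kif11, Nusap1, Tpx2, Hmmr, Ube2c, Cenpa, Cenpe, Cenpf and Cdc20). Stmn1, a microtubule-destabilising protein, and Hmgb2, a chromatin protein, form the remaining 2. Their RNA was followed by bulk sequencing in mouse regulatory T cells (Tregs), the Foxp3-dependent CD4 T cells that restrain immune responses. All 40 passed the filter on low counts in every fit, so each was tested in each comparison.

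A dividing cell first copies its DNA and then separates the copies. The MCM helicase is loaded onto replication origins by Cdc6 and Cdt1, cyclin E drives entry into replication, and ribonucleotide reductase, thymidylate synthase and thymidine kinase supply nucleotides. Cyclin A and cyclin B with Cdk1 then drive mitosis, in which Aurora and Polo kinases, spindle motors, kinetochore proteins and the anaphase-promoting complex act in turn. E2F factors are known regulators of many replication genes, while mitosis genes are often controlled through a cell cycle homology region (CHR) and CCAAT boxes.

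The mice were C57BL/6 carrying vTreg53 Tg+, a transgenic T cell receptor, so the clonotype-positive Tregs sorted from them share 1 receptor. They were taken at week 0 or after 2, 4, 8 or 16 weeks on the diets labelled NCD and HFD, begun at 12 weeks of age. The series text speaks of recipient mice without describing a transfer. Spleen gave 26 libraries and visceral adipose tissue (VAT) 25, in 9 groups each. Groups held 3 libraries, except spleen NCD week 4, VAT HFD week 4 and VAT NCD week 16 with 2. A separate experiment used mice carrying PPARgamma-tdT KI/KI together with Foxp3-GFP KI/y, injected with IL-33 beforehand to expand their VAT Tregs. Their tdTomato-positive VAT Tregs were kept in culture with IL-33 (10 ng/ml) plus IL-2 (2000 U/ml) over 3 days, without IFNa (control, 3 libraries) or with 50 ng/ml IFNa (2 libraries), and Foxp3-GFP-positive cells were then sorted. The labels do not say whether replicates are separate mice or cultures, so p-values measure the spread between libraries, which may be technical.

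Library totals ranged from 3248686 to 5826965 counts in spleen, from 3319873 to 6091439 in VAT and from 5408696 to 8764390 in culture. Levels are given as CPM, counts scaled to a common library total, and 3 counts were worth 0.342 to 0.923 CPM. The spleen libraries also carry the VAT tissue label, and their titles were used instead. Foxp3 was at 701 to 911 CPM in spleen, 903 to 1145 CPM in VAT and 538 to 1238 CPM in culture. Pparg, the VAT Treg regulator, was at 0 to 7.76 CPM in spleen, 17.8 to 122 CPM in VAT and 3.95 to 7.95 CPM in culture. Of other cell types, adipocyte markers summed to at most 6.99 CPM, macrophage markers to 27.2, dendritic cell markers to 30.2, NK and CD8 cell markers to 84.7 and erythroid markers to 113 CPM. The stromal and endothelial list summed to 164 to 402 CPM in spleen, 33.9 to 145 CPM in VAT and 173 to 187 CPM in culture, nearly all of it Pecam1, while Col1a1 did not exceed 6.01 CPM and Cdh5 did not exceed 2.33 CPM. The B cell list summed to 320 to 6086 CPM, nearly all of it Ighm.

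Promoter sequences are shown first because the replication and mitosis genes, whose median differences are set side by side in each comparison, also hold different short motifs. RefSeq promoters (GRCm38.p6, 250 bases before to 50 after the start) were matched for 33 of the 40 genes. They were searched on both strands for the E2F strings TTTGGCGC and TTTCCCGC, the CHR strings TTTGAA and TTCGAA, and the CCAAT box. Counted by gene, with a gene counted when any of its listed promoters holds the string, E2F strings were found for 6 of 14 replication genes and 0 of 18 mitosis genes. Counted by promoter, 1.56% of all 32851 held one. CHR strings were found for 2 of 14 replication and 14 of 18 mitosis genes, and in 19.2% of all promoters. CCAAT was found for 9 of 14 and 16 of 18 genes, and in 37.4% of all promoters. Mcm7 and Uhrf1 have 2 listed promoters each, so the gene counts and the promoter shares are not on the same footing. These matches describe letters and are not evidence of binding, and no test was made over the genes. The stretches printed run 5′ to 3′ on the gene's strand from 170 bases before to 30 after the start, with the matched motifs in capitals. The replication genes lie at chr1:128359676-128359875 (-) for Mcm6, chr8:75109339-75109538 (+) for Mcm5, chr11:98907981-98908180 (+) for Cdc6 and chr1:20820283-20820482 (-) for Mcm3, which hold an E2F string in this stretch, as does 1 of the 2 Mcm7 promoters, not printed.
Mcm6: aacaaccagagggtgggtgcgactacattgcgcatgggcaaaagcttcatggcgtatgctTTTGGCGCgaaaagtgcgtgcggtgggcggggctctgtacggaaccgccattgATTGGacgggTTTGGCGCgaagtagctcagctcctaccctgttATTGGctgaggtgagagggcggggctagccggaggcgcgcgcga
Mcm5: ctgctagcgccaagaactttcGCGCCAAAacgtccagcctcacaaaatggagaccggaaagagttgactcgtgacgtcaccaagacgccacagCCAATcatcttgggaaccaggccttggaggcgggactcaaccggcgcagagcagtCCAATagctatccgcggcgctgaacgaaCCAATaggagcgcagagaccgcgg
Cdc6: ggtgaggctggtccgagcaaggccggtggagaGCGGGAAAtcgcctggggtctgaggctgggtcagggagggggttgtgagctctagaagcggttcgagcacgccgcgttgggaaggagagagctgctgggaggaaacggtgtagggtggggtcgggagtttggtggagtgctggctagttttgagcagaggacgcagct
Mcm3: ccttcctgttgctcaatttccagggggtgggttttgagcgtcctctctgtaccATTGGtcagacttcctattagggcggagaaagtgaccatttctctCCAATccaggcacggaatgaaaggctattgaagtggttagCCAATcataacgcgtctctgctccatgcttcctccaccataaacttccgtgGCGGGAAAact

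The mitosis promoters shown were picked from genes named in the comparisons, and each holds a CHR string and CCAAT boxes. They lie at chr9:70421525-70421724 (-) for Ccnb2, chr10:69352883-69353082 (-) for Cdk1, chr1:189688057-189688256 (-) for Cenpf, chr4:118437314-118437513 (-) for Cdc20 and chr5:30666716-30666915 (+) for Cenpa. The CHR string stands within 20 bases of the annotated start in all of them.
Ccnb2: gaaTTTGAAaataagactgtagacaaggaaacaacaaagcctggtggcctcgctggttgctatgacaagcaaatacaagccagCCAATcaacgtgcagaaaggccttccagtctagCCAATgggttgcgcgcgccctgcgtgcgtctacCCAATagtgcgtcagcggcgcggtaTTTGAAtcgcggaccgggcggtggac
Cdk1: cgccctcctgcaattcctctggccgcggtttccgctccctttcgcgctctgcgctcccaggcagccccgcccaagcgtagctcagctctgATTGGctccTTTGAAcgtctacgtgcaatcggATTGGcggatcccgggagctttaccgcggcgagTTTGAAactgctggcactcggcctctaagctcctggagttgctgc
Cenpf: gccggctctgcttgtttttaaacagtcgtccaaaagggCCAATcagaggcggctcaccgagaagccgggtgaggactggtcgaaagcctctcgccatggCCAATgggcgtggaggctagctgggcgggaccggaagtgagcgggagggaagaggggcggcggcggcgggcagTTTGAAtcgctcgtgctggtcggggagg
Cdc20: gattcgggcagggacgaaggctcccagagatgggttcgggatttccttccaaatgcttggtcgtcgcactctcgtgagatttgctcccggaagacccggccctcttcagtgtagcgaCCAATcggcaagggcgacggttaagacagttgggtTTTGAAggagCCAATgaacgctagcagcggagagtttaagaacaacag
Cenpa: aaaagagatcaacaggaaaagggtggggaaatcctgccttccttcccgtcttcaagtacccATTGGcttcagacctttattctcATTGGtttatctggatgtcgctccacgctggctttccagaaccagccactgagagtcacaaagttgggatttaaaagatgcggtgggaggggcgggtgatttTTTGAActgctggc

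Levels of single genes were compared with each other only per kilobase of exon. At week 0 in VAT the helicase subunit Mcm6 was highest, at 118 CPM per kb, followed by Mcm3 at 73.8, Rrm2 at 73.4, Mcm4 at 65.6 and Mcm5 at 61.7 CPM per kb. The first mitosis gene in that order was the cyclin Ccnb2, at 58.9 CPM per kb. Cdc20 stood at 33.2, Cenpa at 29.9, Ccna2 at 27.1, Top2a at 24.1 and Mki67 at 17.5 CPM per kb. The lowest were Cenpf at 2.29, Hmmr at 4.30 and Cdc6 at 4.49 CPM per kb. Replication genes thus filled the upper end of the order on this measure. The length used merges the exons of all annotated transcripts of a gene, such as 5860 bases for Cenpa, and can exceed that of the RNA present. The order between genes therefore depends on the annotation, and other lengths were not tried. The sums over the 17 replication and 21 mitosis genes, also used for the replication to mitosis ratios, are in CPM without scaling for exon length. On that measure the replication sum exceeded the mitosis sum in all 56 libraries. Neighbours in this order, such as Mcm3 and Rrm2, were not tested against each other.

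**Figure D1:**
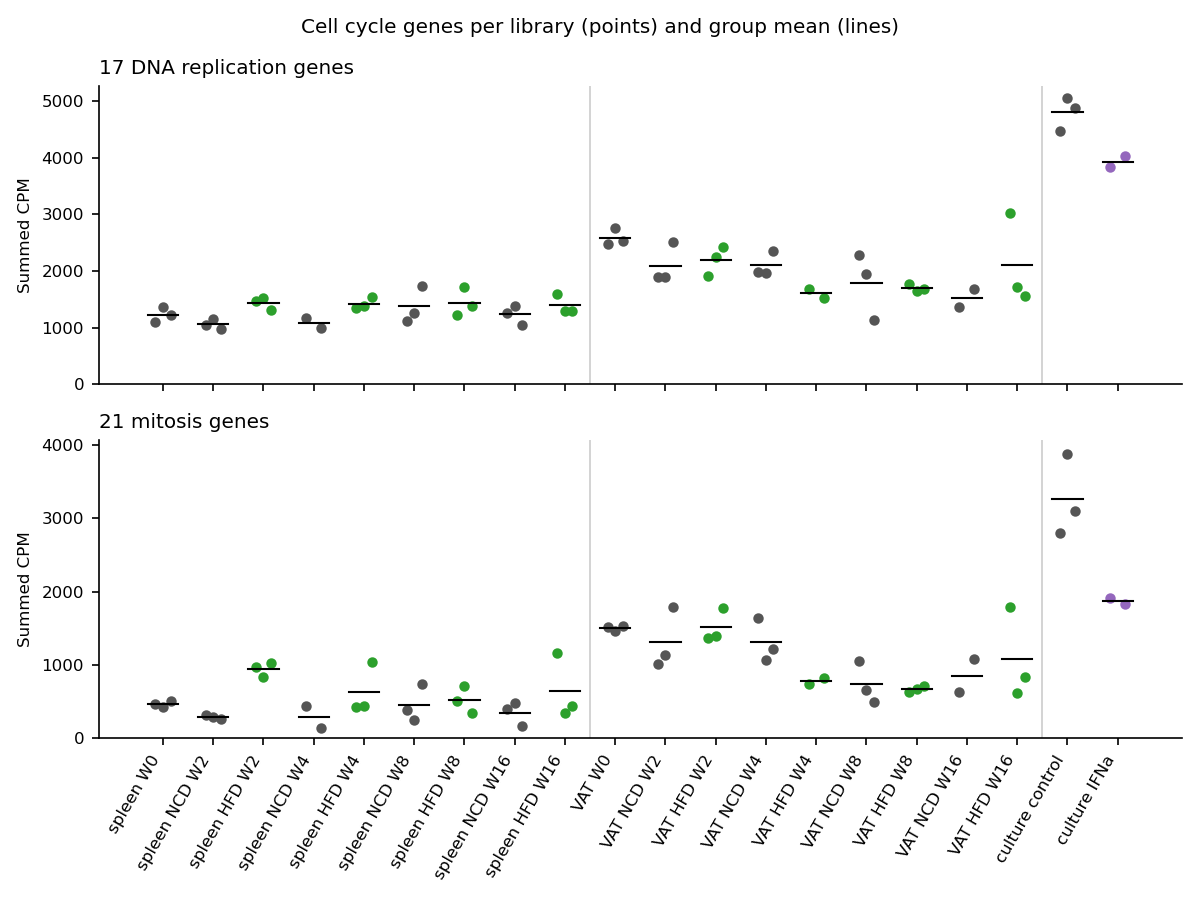
Summed CPM (vertical axes) of the 17 replication genes (top) and 21 mitosis genes (bottom) in each library (points), by group (horizontal axis), with group means as lines. Cultures are highest, VAT week 0 lies above spleen, and spleen HFD week 2 mitosis sums of 838 to 1027 CPM lie above the 258 to 317 CPM of NCD week 2.

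A few libraries stood apart within their groups. In spleen, HFD week 4 replicate 3 and HFD week 16 replicate 1 had mitosis sums of 1040 and 1162 CPM, while the other libraries of those groups had 347 to 439 CPM. Spleen NCD week 4 replicate 2 and NCD week 16 replicate 3 had the lowest sums, at 137 and 162 CPM. VAT HFD week 16 replicate 1 was at 1795 CPM beside 621 and 832 CPM. Results over the weeks are given with and without such libraries where a call rests on them.

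Whether Treg cell cycle RNA differs between tissues was asked over week 0 and the NCD weeks, 14 libraries a tissue. All 40 genes were higher in VAT than in spleen, where 59.1% of all genes tested changed and 29.1% were higher. The mitosis genes differed more, with a median log2 fold change of 2.05, than the replication genes, with 0.95, and the median over all genes was -0.04. In bulk RNA, fewer dividing cells and less of this RNA per dividing cell cannot be told apart.

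Among replication genes, Pcna, the sliding clamp of DNA polymerase, had a lowest, median and highest level of 77.8, 101 and 128 CPM in VAT, against 53.7, 66.3 and 77.7 CPM in spleen. The tissues just failed to overlap, and the log2 fold change was 0.79 ± 0.08 (SE, adjusted p = 1.91e-12, edgeR's quasi-likelihood test with Benjamini-Hochberg adjustment, used for every adjusted p that follows). Mcm6 was at 288, 490 and 563 CPM in VAT and 216, 278 and 449 CPM in spleen, a log2 difference of 0.92 ± 0.09 (adjusted p = 1.36e-11). Rrm1, the large subunit of ribonucleotide reductase, was at 82.1, 180 and 249 CPM against 50.0, 90.9 and 133 CPM, a log2 difference of 1.31 ± 0.13 (adjusted p = 3.83e-11). Mcm6 and Rrm1 overlapped between tissues, the lowest VAT library of Rrm1 lying below the spleen median, while both VAT medians lay above the highest spleen library. Other helicase subunits spread from Mcm7 at 0.47 ± 0.11 and Mcm2 at 0.75 ± 0.08 to Mcm5 at 1.22 ± 0.15 and Mcm3 at 1.28 ± 0.13 on the log2 scale. Rrm2, the small reductase subunit, differed by 1.61 ± 0.32 and Tk1, thymidine kinase, by 0.53 ± 0.13. Cdc6, which loads the helicase, differed most of the replication genes, by 2.65 ± 0.41, from a spleen mean of only 3.38 ± 2.84 CPM (SD, n = 14). Ccne1, which encodes cyclin E1, differed least firmly, by 0.49 ± 0.20 (adjusted p = 0.0338), and lost its call in 10 of 34 alternative analyses, with adjusted p between 0.00497 and 0.10.

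Among mitosis genes, Cdk1, the kinase that drives mitotic entry, had a lowest, median and highest level of 22.3, 51.6 and 88.1 CPM in VAT against 2.40, 9.40 and 22.2 CPM in spleen. The log2 fold change was 2.45 ± 0.28 (adjusted p = 2.57e-09). Cdk1 and Pcna were the only 2 of the 40 whose tissues did not overlap, a count near the 4.42% of all genes that lay wholly higher in VAT. Both gaps were very narrow, 22.3 against 22.2 CPM for Cdk1 and 77.8 against 77.7 CPM for Pcna. Overlap was judged on CPM scaled to library totals, without the TMM scaling of the tests, so it could change with the scaling. Mki67, the proliferation marker Ki-67 that coats mitotic chromosomes, was at 74.9, 132 and 228 CPM against 13.4, 40.3 and 87.1 CPM, a log2 difference of 2.03 ± 0.25 (adjusted p = 9.65e-09). Bub1b, the checkpoint kinase that holds anaphase until chromosomes attach, differed by 2.01 ± 0.25 (adjusted p = 7.91e-09). Top2a, which untangles sister DNA, differed by 1.88 ± 0.28 and Ccnb1, cyclin B1, by 2.25 ± 0.39. Cenpa, the histone H3 variant of centromeres, was the mitosis gene that differed least, at 0.90 ± 0.11 (adjusted p = 2.30e-09), with 77.002, 138 and 199 CPM in VAT and 58.7, 82.5 and 128 CPM in spleen. Cenpa therefore lay beside the replication genes in size.

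The ratio of the summed replication to the summed mitosis level was 1.21 to 2.95 (median 1.85) over these VAT libraries and 2.34 to 7.27 (median 3.195) over spleen. The further genes of both kinds moved the same way: 15 of 18 other replication genes and 20 of 21 other mitosis genes were higher in VAT. Regulators did not follow 1 direction, with 8 higher and 1 lower of 13 Rb, E2F and DREAM genes, 5 higher and 2 lower of 8 cyclin D, kinase and Myc genes, and 4 higher and 4 lower of 10 quiescence genes. Of the CDK inhibitors 4 of the 6 tested were higher. Cdkn1a, which encodes the inhibitor p21, was at 209 ± 43.7 CPM in VAT against 2.86 ± 1.90 CPM in spleen (SD, n = 14), and Btg2, an anti-proliferative gene, rose by 2.50 ± 0.07 on the log2 scale (adjusted p = 4.81e-31). Rbl2, a pocket protein of quiescent cells, rose by 1.28 ± 0.06 and Foxo1 was lower by a log2 change of -1.51 ± 0.08. Immediate early and heat shock genes, known to respond to handling, moved with the tissue: 19 of 20 were higher in VAT, with summed levels of 11156 to 32051 CPM over all VAT libraries against 1556 to 2470 CPM over spleen. Pecam1 was lower in VAT, by a log2 change of -2.11 ± 0.10 (adjusted p = 6.69e-21). The part of either in the difference was not tested.

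**Figure D2:**
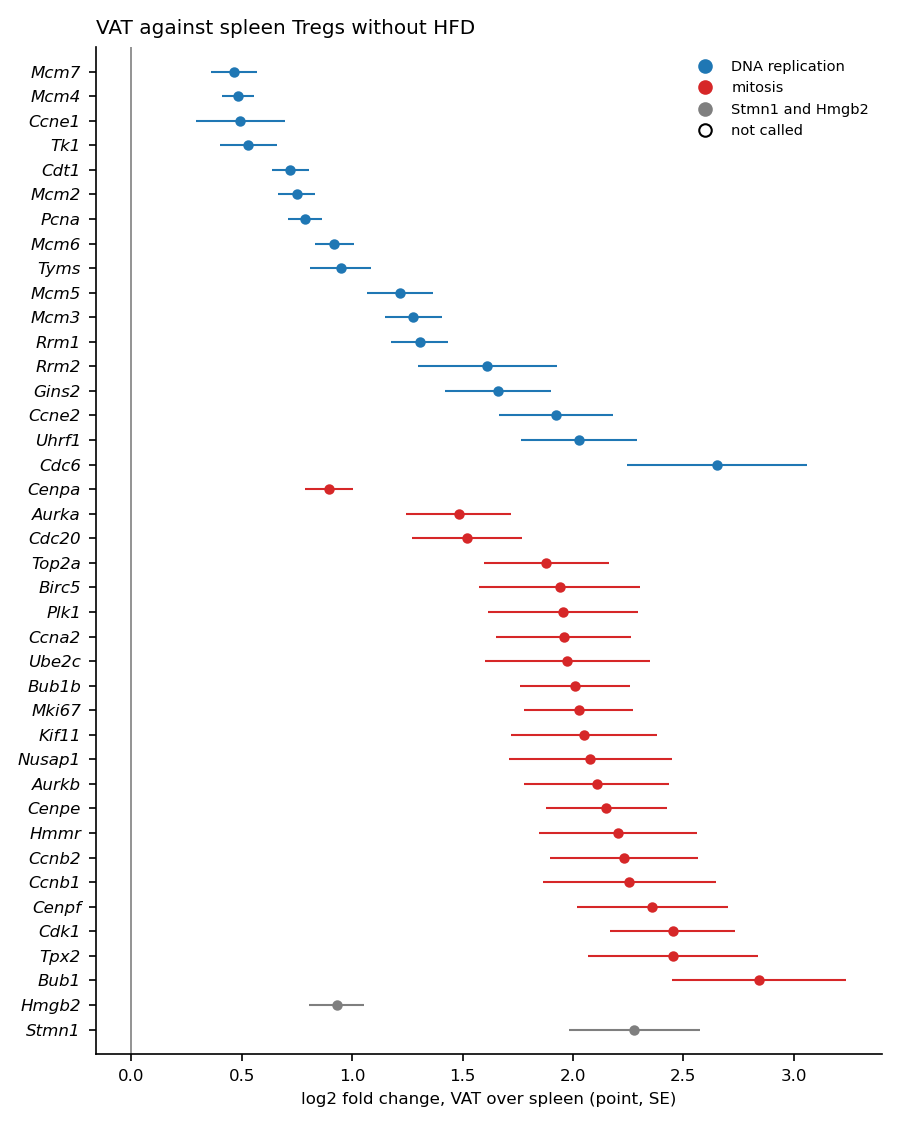
Log2 fold change of each of the 40 genes in VAT over spleen (horizontal axis, points with SE bars) over week 0 and NCD libraries, grouped by role. Every point lies to the right of 0, mitosis genes around 2.05 and replication genes around 0.95.

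The diet question was asked as HFD against NCD at each week and as the equally weighted mean of the 4 weeks. In spleen, all 40 genes had a positive mean log2 fold change with HFD, and 4 passed the test: Cenpe, Bub1b, Hmgb2 and Mcm6. Over all genes 0.933% passed, 0.613% as higher. The median was 1.14 for mitosis genes, 0.34 for replication genes and 0.00 for all genes. At an unadjusted p under 0.05 stood 20 of 21 mitosis genes and 8 of 17 replication genes, beside 2101 of all 14686 genes tested.

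Cenpe, the kinetochore motor that aligns chromosomes, had a lowest, median and highest level of 12.2, 20.6 and 55.0 CPM in the 12 spleen HFD libraries and 0.487, 7.18 and 13.0 CPM in the 11 NCD libraries. The diets overlapped only narrowly, and the log2 change was 1.85 ± 0.38 (adjusted p = 0.0263). Bub1b was at 8.29, 22.8 and 40.6 CPM against 3.60, 7.72 and 19.0 CPM, a log2 change of 1.24 ± 0.26 (adjusted p = 0.0258). Hmgb2 was at 34.3, 49.6 and 89.9 CPM against 26.5, 41.5 and 52.4 CPM, a log2 change of 0.53 ± 0.12 (adjusted p = 0.0346), with most libraries of both diets in the same range. Mcm6 was at 298, 358 and 458 CPM against 216, 276 and 449 CPM, a log2 change of 0.34 ± 0.08 (adjusted p = 0.0356). Cdk1 and Cenpf missed the threshold, with log2 values of 1.26 ± 0.32 (adjusted p = 0.0616) and 1.68 ± 0.43 (adjusted p = 0.0651), as did Mki67 at 0.91 ± 0.31 (adjusted p = 0.184). Replication genes such as Pcna, at 0.03 ± 0.08, and Mcm2, at 0.14 ± 0.07, gave values near 0.

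Of the further mitosis genes 1 of 21 rose in spleen, Racgap1, a regulator of cytokinesis, by 1.16 ± 0.25 (adjusted p = 0.0339). Among 18 further replication genes edgeR called 0, and 3 had an unadjusted p under 0.05, beside 2101 of all 14686 genes tested. The 4 calls among the cell cycle genes changed with single weeks and libraries. Without week 2, 4 or 16 none of the 40 passed, and without week 8 there were 2. Leaving out NCD week 4 replicate 2, NCD week 8 replicate 1, HFD week 4 replicate 3 or HFD week 16 replicate 1 also left 0, while leaving out NCD week 4 replicate 1 gave 12.

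At week 2 in spleen the median log2 value was 1.82 for mitosis genes, the highest of the 4 weeks, and 0.46 for replication genes (0.00 for all genes). None of the 40 passed edgeR's test there, where 0.0272% of all genes did. Of the 40, 21 had an unadjusted p under 0.05, beside 1402 of all 14686 genes tested. DESeq2 called 2, limma voom 1 and edgeR fitted to the groups compared alone 8. The share of all genes called in these other fits is not given here. Mki67 was at 112, 72.9 and 102 CPM in the HFD libraries and 40.6, 24.5 and 19.2 CPM in the NCD libraries, a log2 value of 1.75 ± 0.62 (adjusted p = 0.382). Top2a was at 134, 137 and 139 CPM against 18.8, 50.7 and 21.8 CPM, a log2 value of 2.15 ± 0.75 (adjusted p = 0.382). Cenpe was at 21.2, 27.9 and 55.0 CPM against 9.85, 2.38 and 9.44 CPM, a log2 value of 2.22 ± 0.72 (adjusted p = 0.353). In each of these 3 genes every HFD library lay above every NCD library. The same held for all 21 mitosis genes, Stmn1 and Hmgb2, but for only 4 replication genes (Rrm1, Mcm3, Mcm4 and Mcm6), where 7.36% of all genes lay wholly higher. Mcm2, in contrast, was at 108, 124 and 118 CPM against 112, 114 and 120 CPM, a log2 value of -0.01 ± 0.14.

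Summed over genes, mitosis RNA at week 2 was 965, 838 and 1027 CPM with HFD against 317, 297 and 258 CPM with NCD, and replication RNA 1475, 1528 and 1306 CPM against 1044, 1148 and 981 CPM. Ighm differed between the same libraries, with the B cell list at 1714 to 2237 CPM against 1289 to 1496 CPM, and its part in the difference was not tested. At weeks 4, 8 and 16 edgeR called none of the 40 in spleen, where 1.24%, 0% and 0% of all genes passed. An unadjusted p under 0.05 was reached by 7, 0 and 5 of the 40, beside 1414, 716 and 975 of all 14686 genes tested. DESeq2 and limma voom called 0 at each of these weeks. The medians for mitosis genes were 1.19, 0.32 and 1.05 and those for replication genes 0.60, -0.02 and 0.20. At week 4 Mcm5 had the smallest p of the 40, with 99.9, 109 and 87.4 CPM against 66.8 and 44.4 CPM and a log2 value of 0.83 ± 0.26 (adjusted p = 0.168). Unlike at week 2, HFD lay wholly above NCD at week 4 for 11 of 17 replication genes but 6 of 21 mitosis genes, and for Stmn1 and Hmgb2. The share of all genes doing so at week 4 is not given here. At week 8 this held for none of the 40 and at week 16 for Rrm1, Cenpe and Hmmr.

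**Figure D3:**
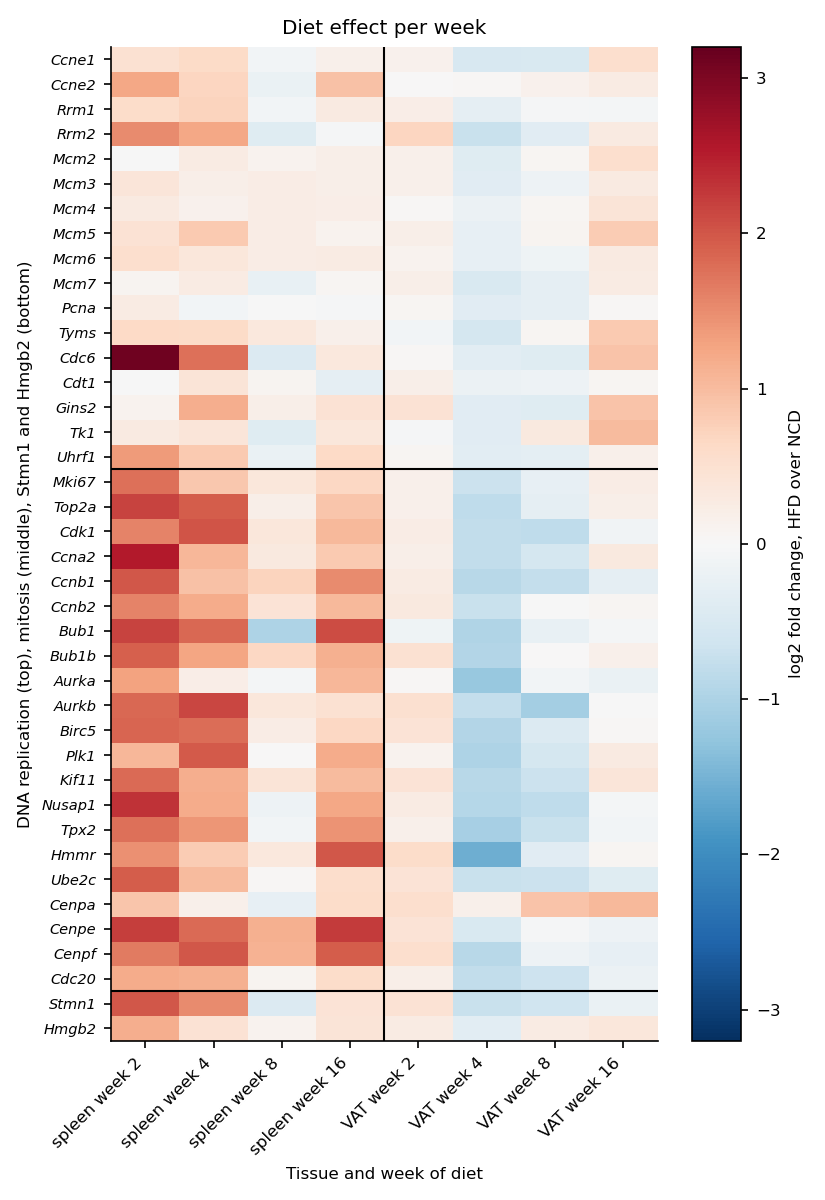
Log2 fold change of HFD over NCD (colour) for the 40 genes (rows, by role) at weeks 2, 4, 8 and 16 in spleen and VAT (columns). The mitosis rows have medians of 1.82, 1.19, 0.32 and 1.05 in spleen and 0.27, -0.88, -0.45 and -0.01 in VAT, and the Cenpa row differs from the other mitosis rows in VAT.

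In VAT 1 of the 40 genes, Cenpa, rose with HFD over the mean of the weeks. The medians were -0.28 for mitosis genes, -0.00 for replication genes and -0.01 for all genes. It was the only call among the 40, where 4.20% of all genes passed and 2.34% were higher. It had a lowest, median and highest level of 144, 211 and 274 CPM in the 11 HFD libraries and 77.002, 133 and 199 CPM in the 11 NCD libraries. The log2 change was 0.66 ± 0.08 (adjusted p = 3.87e-06), and it passed in all 32 alternatives with log2 values of 0.54 to 0.83. The other 20 mitosis genes had negative values, among them Mki67 at -0.14 ± 0.18 and Top2a at -0.19 ± 0.20.

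By week, Cenpa in VAT was at 254, 201 and 219 CPM with HFD and 137, 163 and 199 CPM with NCD at week 2, a log2 value of 0.54 ± 0.14 (adjusted p = 0.163). At week 4 it was at 157 and 144 CPM against 152, 138 and 133 CPM, a value of 0.15 ± 0.16 (adjusted p = 0.805). At week 8 it was at 211, 150 and 179 CPM against 97.3, 77.002 and 106 CPM, higher with HFD by 0.92 ± 0.14 (adjusted p = 0.00107). The diets overlapped at week 4 alone. At week 16 Cenpa was at 274, 229 and 225 CPM against 99.8 and 119 CPM, higher with HFD by 1.03 ± 0.16 (adjusted p = 0.000103). These HFD libraries also lay above the 178, 163 and 186 CPM of week 0. The HFD libraries of week 8 instead spanned the week 0 levels, and the NCD libraries of weeks 8 and 16 lay below them. Both calls held in every alternative, 12 at week 8 and 11 at week 16. No exon of Cenpa overlapped another annotated gene. Pecam1 rose in the same comparisons, by 1.13 ± 0.23 at week 8 (adjusted p = 0.0116), 1.72 ± 0.27 at week 16 (adjusted p = 0.000134) and 0.66 ± 0.12 over the mean of weeks (adjusted p = 0.00163), and its part was not tested.

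Beside Cenpa, 2 replication genes passed at week 16, both for thymidine nucleotides, where 9.24% of all genes passed and 4.31% were higher. Tyms, thymidylate synthase, was at 89.4, 60.1 and 50.2 CPM with HFD against 32.3 and 37.2 CPM, a log2 change of 0.83 ± 0.25 (adjusted p = 0.0366). Tk1 was at 85.7, 50.7 and 41.9 CPM against 28.3 and 26.6 CPM, a log2 change of 1.00 ± 0.31 (adjusted p = 0.0402). In both genes HFD lay wholly above NCD, as in 24.6% of all genes. Each lost its call in 6 of 11 alternatives, with adjusted p up to 0.235 for Tk1 and 0.287 for Tyms, including those without VAT NCD week 16 replicate 2 or 3 or HFD week 16 replicate 1. Mki67 was at 209, 66.5 and 70.1 CPM against 74.9 and 107 CPM, so that 1 HFD library stood above and the others below, a log2 value of 0.23 ± 0.39 (adjusted p = 0.804).

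Some cell cycle regulators also changed at week 16 in VAT. Cdkn1a fell by 1.24 on the log2 scale (SE 0.20, adjusted p = 0.000198), with NCD at 235 ± 17.5 CPM (SD, n = 2) and HFD at 108 ± 23.6 CPM (SD, n = 3). Btg2 fell by 1.09 and Rbl2 by 0.49, while Foxo1 rose by 1.12. None of the 18 further replication genes or 21 further mitosis genes passed edgeR's test. An unadjusted p under 0.05 was reached by 5 and 1 of them, beside 3072 of all 14164 genes tested. The stress genes moved with the diet at this week, 12 of 20 lower with HFD and a summed level of 11156 to 22227 CPM against 31600 to 32051 CPM. The B cell list stood at 1641 to 2452 CPM with HFD against 320 to 333 CPM, 1 of 5 tested genes being called higher, and the stromal and endothelial list at 77.04 to 145 CPM against 34.6 to 39.02 CPM, 1 of 2 called higher. The part of these lists in the changes of Cenpa, Tyms, Tk1 and the regulators was not tested.

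At week 4 in VAT 38 of the 40 values were negative, without any call. Mki67 was at 80.7 and 89.0 CPM with HFD against 148, 120 and 163 CPM with NCD, a log2 value of -0.69 ± 0.40 (adjusted p = 0.595). Mcm2 was at 148 and 129 CPM against 195, 188 and 182 CPM, a value of -0.39 ± 0.23 (adjusted p = 0.603). In both genes the 2 HFD libraries were the lowest, and in 31 of the 40 (10 replication, 19 mitosis, Stmn1 and Hmgb2) HFD lay wholly below NCD, as in 16.8% of all genes. The B cell list also lay wholly lower, at 654 to 761 CPM with HFD against 822 to 5837 CPM, and its part was not tested. The medians were -0.88 for mitosis and -0.35 for replication genes. edgeR called 0 of the 40 where 0.0212% of all genes passed, and DESeq2 and limma voom called 0. Of the 40, 2 had an unadjusted p under 0.05, beside 1385 of all 14164 genes tested. At weeks 2 and 8, where 0.0565% and 1.33% of all genes passed, edgeR called 0 and 1 (Cenpa, where 0.833% of all genes were higher). An unadjusted p under 0.05 was reached by 1 and 2 of the 40, beside 1429 and 1859 of all 14164 genes tested. DESeq2 and limma voom gave the same 0 at week 2.

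The diet effect itself differed between the tissues for 3 mitosis genes, all lower in VAT, where 2.44% of all genes differed and 1.35% were lower. Cenpe differed by a log2 value of -1.92 ± 0.42 (adjusted p = 0.00779), with its own mean diet effect at 1.85 ± 0.38 in spleen and -0.06 ± 0.15 in VAT. Cdk1 differed by -1.64 ± 0.43 (adjusted p = 0.0320), with 1.26 ± 0.32 in spleen and -0.37 ± 0.25 in VAT. Cenpf, a large kinetochore protein, differed by -1.88 ± 0.52 (adjusted p = 0.0431), with 1.68 ± 0.43 and -0.19 ± 0.26. In spleen NCD the lowest library was at 0.487 CPM for Cenpe and 0 CPM for Cenpf. Both lie below the 0.515 to 0.923 CPM that 3 counts were worth in spleen, so these values rest partly on levels at the floor. The difference was negative for 38 of the 40, with a median of -1.41 for mitosis genes, -0.33 for replication genes and -0.03 for all genes. Of the mitosis genes 20 of 21 had an unadjusted p under 0.05, against 2 of 17 replication genes and 2273 of all 15601 genes tested. Cenpa, at 0.30 ± 0.17 (adjusted p = 0.432), and Tk1, at 0.05 ± 0.20, were the 2 with positive values. Among further mitosis genes 3 of 21 were called, including Racgap1 at -1.30 ± 0.31 (adjusted p = 0.0174) and Kif4, a chromosome kinesin, at -2.37 ± 0.61 (adjusted p = 0.0275). Cenpe lost its call in 1 of 55 alternatives (without week 16, adjusted p = 0.101, over a range of 2.16e-15 to 0.101), Cdk1 in 12 and Cenpf in 29. Without week 16 none of the 40 was called, and without single libraries 1 to 11 were. Pecam1 differed as well, by 0.94 ± 0.16 (adjusted p = 0.000408), and its part was not tested.

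**Figure D4:**
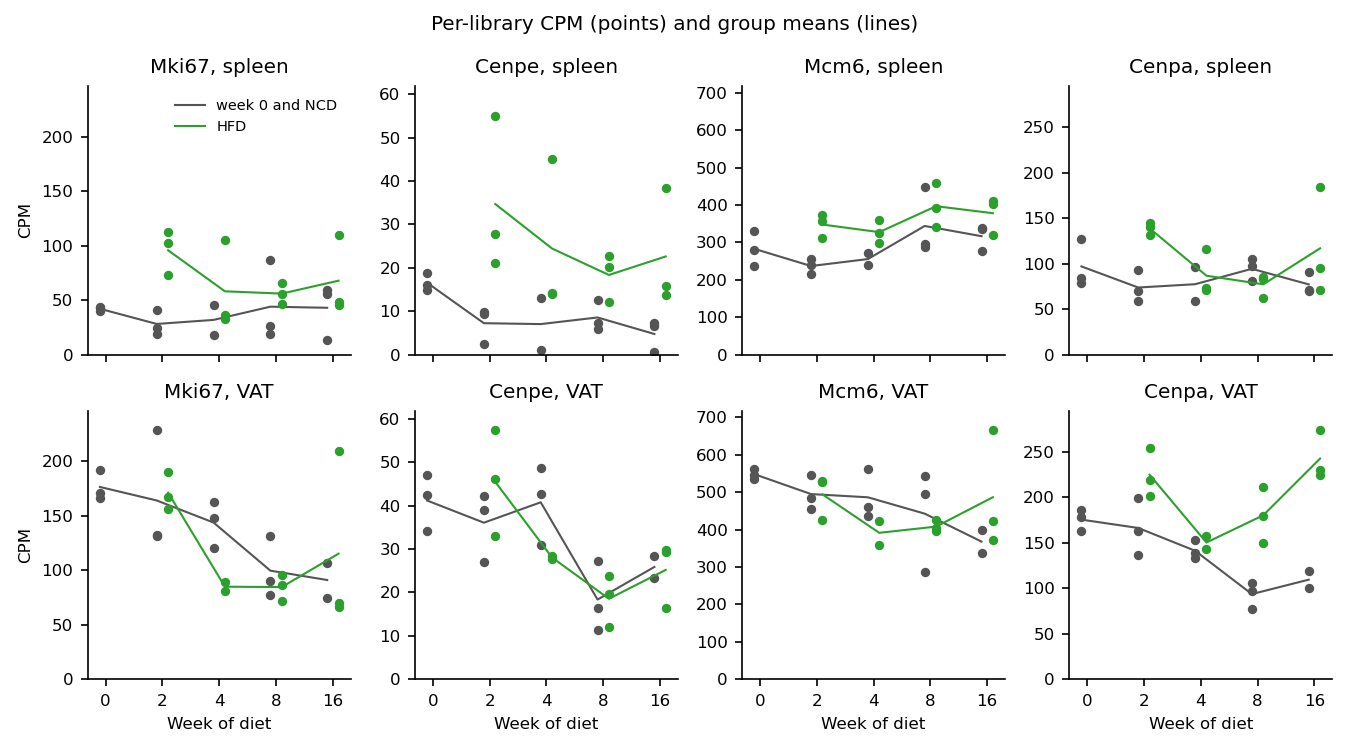
CPM (vertical axes) of Mki67, Cenpe, Mcm6 and Cenpa by week of diet (horizontal axes) in spleen (top) and VAT (bottom), with libraries as points and group means as lines. Cenpa in VAT separates by diet at week 8 (150 to 211 against 77.002 to 106 CPM) and week 16, and Cenpe in spleen lies higher with HFD at each week, with overlap at week 8.

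Time on the NCD diet was compared as NCD week 16 against week 0. In VAT all 40 log2 values were negative, with medians of -0.83 for replication and -0.73 for mitosis genes against -0.01 for all genes. No gene of the 40 passed edgeR's test, where 0.713% of all genes did. Of the 40, 17 had an unadjusted p under 0.05 (13 replication, 4 mitosis), beside 1861 of all 14164 genes tested. DESeq2 called 3, limma voom 5 and edgeR fitted to these groups alone 21. The share of all genes called in these other fits is not given here. Mcm5 was at 81.2 and 117 CPM at week 16 against 235, 266 and 238 CPM at week 0, a log2 value of -1.27 ± 0.42 (adjusted p = 0.192). Mki67 was at 74.9 and 107 CPM against 171, 192 and 167 CPM, a value of -0.91 ± 0.39 (adjusted p = 0.327). Cenpa had the smallest p, at 99.8 and 119 CPM against 178, 163 and 186 CPM and -0.63 ± 0.16 (adjusted p = 0.0559). In each of these genes week 16 lay wholly below week 0, and so it did for 37 of the 40, including all 17 replication genes, as in 21.6% of all genes. This comparison and that of the diets at week 16 share the 2 NCD week 16 libraries. The B cell list was at 320 to 333 CPM in them against 1218 to 2465 CPM at week 0. Of the 20 stress genes 3 were higher at week 16 and Pecam1 was lower, by a log2 change of -1.48 ± 0.27 (adjusted p = 0.00782), and the part of any of these was not tested.

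Among quiescence genes in the same comparison Btg1 rose by 0.86 ± 0.17 (adjusted p = 0.0150), the only 1 of 10 called. In spleen the medians were -0.11 for replication and -0.43 for mitosis genes. edgeR called 0 of the 40 where 0.654% of all genes passed, and DESeq2 and limma voom called 0. Of the 40, 3 had an unadjusted p under 0.05, beside 1452 of all 14686 genes tested.

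With IFNa in the culture 25 of the 40 genes were lower and none higher. Of all genes tested 21.7% changed, and 11.0% were lower. The fall covered 19 of 21 mitosis genes but 4 of 17 replication genes, together with Stmn1 and Hmgb2. The median log2 value was -0.76 for mitosis genes, -0.14 for replication genes and 0.01 for all genes.

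Cdc20, the activator of the anaphase-promoting complex, was at 71.4 and 66.5 CPM with IFNa against 138, 213 and 172 CPM in control, a log2 change of -1.30 ± 0.17 (adjusted p = 0.000517). Cenpa was at 124 and 119 CPM against 215, 290 and 248 CPM, a change of -1.01 ± 0.11 (adjusted p = 3.29e-06). Ccnb1 was at 68.6 and 70.7 CPM against 121, 156 and 133 CPM, a change of -0.93 ± 0.11 (adjusted p = 4.56e-06). In each of these genes both IFNa libraries stood well below all 3 controls. Ccnb2, the other cyclin B, was at 97.1 and 96.6 CPM against 181, 237 and 179 CPM and changed by -1.001 ± 0.12 (adjusted p = 7.82e-06). Bub1b changed by -1.03 ± 0.13 (adjusted p = 1.53e-05) and Cdk1, at 120 and 126 CPM against 173, 240 and 185 CPM, by -0.66 ± 0.13 (adjusted p = 0.00179). Mki67 was at 108 and 82.6 CPM against 154, 208 and 151 CPM and changed by -0.81 ± 0.17 (adjusted p = 0.00653), a call lost with the replicate number as a block (adjusted p = 0.0615, the largest of 10 alternatives, the smallest being 2.61e-13).

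The 2 mitosis genes not called were Top2a and Nusap1. Top2a was at 249 and 221 CPM against 301, 438 and 326 CPM, a log2 value of -0.56 ± 0.16 (adjusted p = 0.0502). Nusap1, a spindle microtubule protein, was at 109 and 101 CPM against 101, 144 and 109 CPM, a value of -0.13 ± 0.13 (adjusted p = 0.550), and was the only mitosis gene whose arms overlapped. Over the 40 genes 33 lay wholly below control (20 mitosis, 11 replication, Stmn1 and Hmgb2), as did 26.8% of all genes.

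Of the replication genes, the fall was in both subunits of ribonucleotide reductase, in Pcna and in Mcm3. Rrm1 was at 269 and 308 CPM against 416, 518 and 446 CPM, a log2 change of -0.63 ± 0.10 (adjusted p = 0.000148). Rrm2 was at 366 and 382 CPM against 539, 745 and 640 CPM, a change of -0.74 ± 0.12 (adjusted p = 0.000789). Pcna was at 115 and 136 CPM against 151, 183 and 185 CPM, a change of -0.42 ± 0.11 (adjusted p = 0.00891). These genes separated the arms, and so did all 6 helicase genes, of which Mcm3 alone passed the threshold here. Mcm3 changed by -0.25 ± 0.08 (adjusted p = 0.0185), but Mcm2, at 354 and 358 CPM against 376, 364 and 417 CPM, had a value of -0.07 ± 0.08 (adjusted p = 0.581). Mcm5 was at 433 and 446 CPM against 465, 495 and 514 CPM, a value of -0.12 ± 0.08 (adjusted p = 0.306). Ccne1 was at 81.0 and 86.6 CPM against 77.6, 97.9 and 92.9 CPM, and Tk1 at 66.9 and 71.3 CPM against 61.9, 89.6 and 78.3 CPM, both with overlapping arms and values of -0.05 ± 0.11 and -0.11 ± 0.14.

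The replication to mitosis ratio was 2.00 and 2.20 with IFNa against 1.60, 1.31 and 1.58 in control, with no overlap. Mitosis RNA summed to 1916 and 1829 CPM against 2799, 3877 and 3098 CPM, and replication RNA to 3840 and 4026 CPM against 4472, 5063 and 4885 CPM. Other mitosis genes fell as well, 12 of 21, among them Racgap1 by 0.83 ± 0.10, the chromosomal passenger Cdca8 by 0.97 ± 0.12 and the kinesin Kif23 by 0.86 ± 0.11, while 3 of 18 further replication genes fell. Ccnd2, a cyclin D, rose by 0.48 ± 0.07 (adjusted p = 3.10e-05). Foxp3 fell in the same libraries, at 538 to 556 CPM against 1186 to 1238 CPM. Macrophage markers summed to 3.24 and 4.62 CPM with IFNa against 7.30 to 12.8 CPM in control, and their part was not tested. Of the 25 calls 17 held in all 10 alternatives, and the 8 lost in at least 1 were Bub1, Cenpe, Kif11, Mcm3, Mki67, Pcna, Plk1 and Ube2c.

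**Figure D5:**
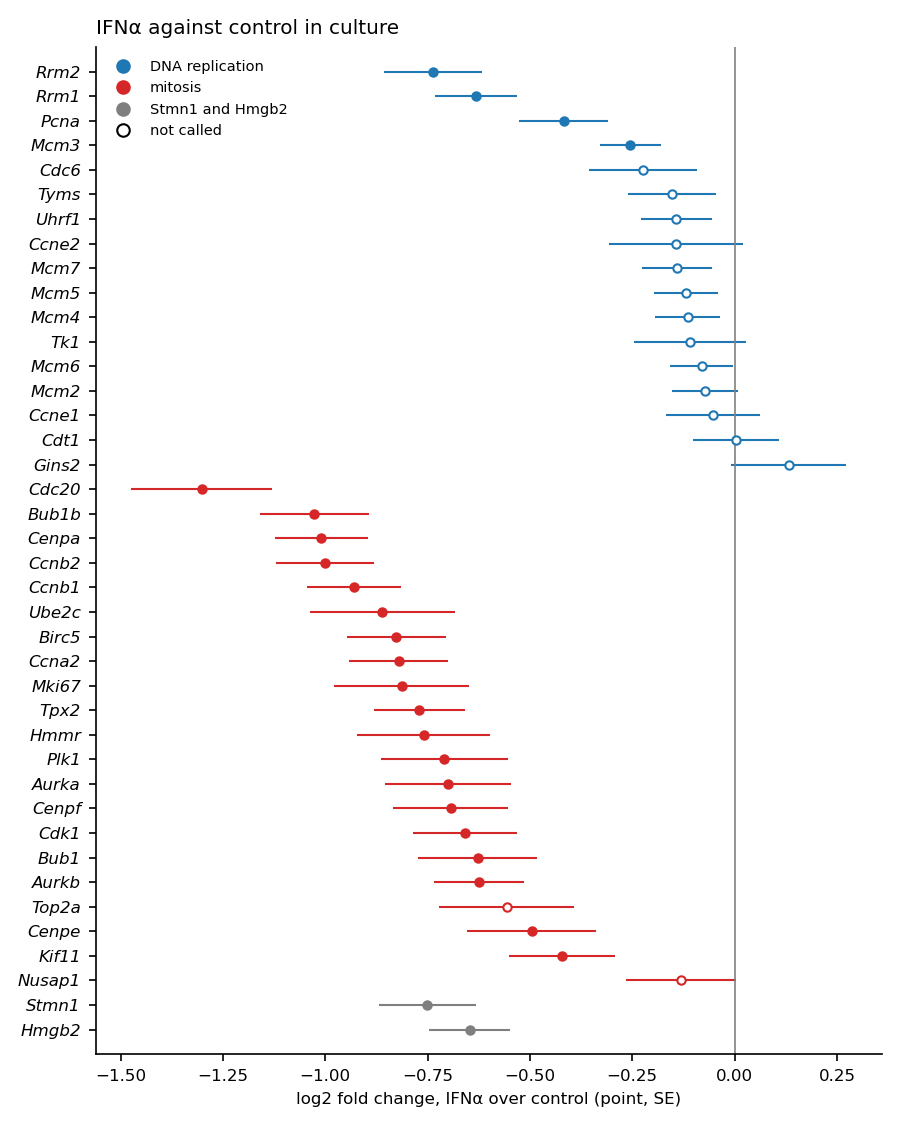
Log2 fold change of each of the 40 genes with IFNa over control in culture (horizontal axis, points with SE bars), grouped by role, with open points for genes not called. Mitosis genes lie mostly between -0.42 and -1.30, and the helicase genes Mcm2 and Mcm5 lie near 0.

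Control cultures were set beside VAT Tregs at week 0. Mouse line, IL-33 injection and culture change together here and cannot be told apart. Of the 40 genes 32 were higher in culture (15 of 17 replication, 15 of 21 mitosis, Stmn1 and Hmgb2) and none lower, where 49.5% of all genes changed and 23.8% were higher. The median log2 values were 1.03 for replication and 1.25 for mitosis genes, against -0.04 for all genes.

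Tyms was at 223 ± 33.1 CPM in culture (SD, n = 3), a log2 change of 1.80 ± 0.21 (adjusted p = 2.69e-08) and the smallest p among the replication genes. Ccne1 rose by 1.90 ± 0.38 (adjusted p = 0.000208) and Rrm1 by 1.13 ± 0.24 (adjusted p = 0.000351). The mitosis genes with the smallest p were Aurka, the spindle pole kinase, at 2.13 ± 0.43 (adjusted p = 0.000208), Birc5, the passenger protein survivin, at 2.23 ± 0.46 (adjusted p = 0.000402) and Cenpa at 0.60 ± 0.14 (adjusted p = 0.000713). Ccnb1 was at 137 ± 18.0 CPM against 28.3 ± 0.96 CPM (SD, n = 3 each) and rose by 2.35 ± 0.52. Mki67, in contrast, was at 154, 208 and 151 CPM against 171, 192 and 167 CPM, a value of 0.04 ± 0.33 (adjusted p = 0.932), and Kif11, the spindle motor, had -0.10 ± 0.37 (adjusted p = 0.838). Mki67 and Kif11 were the 2 whose arms overlapped, while the other 38 lay wholly higher, as did 29.6% of all genes. Mcm6, Ccne2, Top2a, Nusap1, Hmmr and Cenpf were the other 6 without a call.

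Further genes moved with them, 11 of 18 replication and 13 of 21 mitosis genes being higher. Ccnd3 rose by 2.14 ± 0.11, while Btg2 fell by 3.60 ± 0.16 and Rbl2 by 1.84 ± 0.10. Of 20 stress genes 16 were lower in culture, at a summed level of 3871 to 4222 CPM. The B cell list stood at 3416 to 4361 CPM in culture against 1218 to 2465 CPM, and the stromal and endothelial list at 173 to 177 CPM against 84.9 to 111 CPM. The part of these lists was not tested.

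Some values carry a limit from the counting. The strand setting of the counting was not given in the sources used here, and Gins2 shares 67.3% of its exon bases with Gse1 on the other strand, Ube2c 22.8% with Tnnc2, Ccne2 17.4% with Ints8 and Ccna2 12.5% with Exosc9, so reads there cannot be assigned to 1 gene with certainty. Among the listed pseudogene copies of these genes, Ccnb2-ps was highest, at most at 4.76 CPM.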

How the data were processed

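The deposited table holds raw counts per gene symbol, which the authors made with STAR 2.7.3a and featureCounts on mm10, per the submitters' processing notes. Per the labels' protocols, each library came from 1000 double-sorted cells, with poly(A) selection, PCR-amplified cDNA and short paired reads, so counts are not independent molecules. The floors of 3 counts cover counting error only, while the SEs include the spread between libraries. Which annotation release and strand option were used, and how multi-mapping reads were treated, was not given in the sources used here. Groups came from the titles, and 0 columns lacked a sample. No library pair was identical.

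Testing used edgeR 4.0.16 under R 4.3.3: TMM scaling, the filterByExpr low-count filter, and a robust quasi-likelihood model with 1 mean per group, with Benjamini-Hochberg adjustment over all genes tested and calls under 0.05. The fits held 14164 genes in VAT, 14686 in spleen, 15601 in both, 12604 in culture and 14881 in VAT with culture. The SE is the log2 fold change divided by the square root of F. In total 16 comparisons were made. Per-kilobase levels used the GENCODE exon length in mm10, with the exons of all transcripts of a gene merged. Scripts in Python 3.11.15 with pandas 2.3.3 made the summaries. Simulated counts were run through the fits for some of the comparisons, not including the difference in diet effect between tissues, and the outcome is not given here.

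All 40 genes could be named. Full values were given for Mki67, Top2a, Cdk1, Ccnb1, Mcm2, Mcm5, Rrm2, Pcna, Ccne1 and Tk1 where they bear on a comparison, and for the 3 called genes with the smallest p among replication and among mitosis genes. Of the other pathway lists, up to 4 called genes with the smallest p were named. Any value given beyond this was chosen after it was seen. The genes and lists were chosen with earlier results of these data known. Other settings tried were no low-count filter, RLE scaling, limma 3.58.1 voom with quality weights, DESeq2 1.42.0, only the groups compared, the replicate block, and leaving out each library. Fits without each week were added after seeing the data.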

Additional observations from a re-analysis of the deposited data

Results flagged for a closer look

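Cdk1, Cenpe and Cenpf drew attention because their mean response to HFD differed between VAT and spleen by edgeR's test of the difference itself. Cdk1 differed by -1.64 on the log2 scale (adjusted p = 0.0320), Cenpe by -1.92 (adjusted p = 0.00779) and Cenpf by -1.88 (adjusted p = 0.0431). In each the value in VAT was lower. No group held enough libraries for an outlier test within it, and leaving out single libraries moved the number of the 40 genes called here to between 1 and 11.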

How the results depend on the processing

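The numbers called of 40 stayed within 1.5 times for VAT against spleen (39 to 40 without single libraries), IFNa (20 to 27), culture against VAT (25 to 28 without single libraries), and VAT week 4, week 8 and mean of weeks. Of 2368 alternative values for 109 called results, 2206 kept the call, 162 lost it and 0 reversed. The interaction count of 3 became 26 with no filter, 8 with limma voom, 6 with DESeq2, 1 without week 4, 1 without week 8 and 0 without week 16. Without single libraries it ranged from 1 to 11. It was 11 without spleen NCD week 4 replicate 1 or VAT HFD week 16 replicate 1, 7 without spleen NCD week 8 replicate 3, 6 without spleen HFD week 16 replicate 3, and 5 without spleen HFD week 4 replicate 1, spleen HFD week 8 replicate 3 or VAT NCD week 8 replicate 3. It was 1 without spleen NCD week 4 replicate 2, NCD week 8 replicate 1, HFD week 4 replicate 3 or HFD week 16 replicate 1, or without VAT NCD week 4 replicate 1, NCD week 8 replicate 1, NCD week 16 replicate 3 or HFD week 4 replicate 2. The spleen mean count of 4 became 10 with no filter, 10 with DESeq2, 0 without week 2, week 4 or week 16, and 2 without week 8. Without single libraries it ranged from 0 to 12: 12 without NCD week 4 replicate 1, 8 without NCD week 8 replicate 3, 2 without NCD week 2 replicate 3, NCD week 8 replicate 2, NCD week 16 replicate 3 or HFD week 8 replicate 2, 1 without HFD week 8 replicate 1, and 0 without NCD week 4 replicate 2, NCD week 8 replicate 1, HFD week 4 replicate 3 or HFD week 16 replicate 1. The VAT week 16 count of 3 became 1 with the replicate block, limma voom or only the groups compared, and 1 to 4 without single libraries (1 without VAT NCD week 16 replicate 2 or 3). Counts of 0 became 1 at VAT week 2 with no filter (0 to 1 without single libraries, 1 without NCD week 2 replicate 3). For VAT NCD week 16 against week 0 they became 6 with no filter, 5 with limma voom, 3 with DESeq2 and 21 with only the groups compared. At spleen week 2 they became 5, 1, 2 and 8 in the same order, and at spleen week 4 1 with no filter and 0 to 3 without single libraries (3 without NCD week 4 replicate 1). The share of all genes called under each alternative is not given beside these counts. The week fits were chosen after seeing the data. The cause of these shifts was not tested. Replicate numbers were checked as a pairing: same-numbered libraries correlated over 0.1 in 0 of 10 VAT diet pairs, 1 of 11 spleen diet pairs, 2 of 24 tissue pairs and 0 of 2 culture pairs, so pairing by number was not taken as given. Both tissue pairs over 0.1 were in HFD week 16, where the 3 same-numbered pairs gave 0.240, 0.0806 and 0.162 and replicate 1 had the highest mitosis sum in both tissues. With the replicate block the counts were 40 for VAT against spleen, 24 for IFNa, 32 for culture, 4 for the spleen mean, 3 for the interaction and 1 for the VAT mean. Depth limited the lowest genes: Ccnb1 was at 0 in spleen NCD week 4 replicate 2, where 3 counts are worth 0.599 CPM. Cenpe and Cenpf also reached levels below 3 counts in spleen NCD, at 0.487 and 0 CPM. Leaving 1 library in an arm assumed that it varied like the other groups.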
